A study of Mus musculus with 9 samples.

Results

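The 10 genes described here encode enzymes that remove superoxide and peroxides in and around mitochondria: the superoxide dismutases Sod1 and Sod2, catalase (Cat), the glutathione peroxidases Gpx1 and Gpx4, the peroxiredoxins Prdx3 and Prdx5, mitochondrial thioredoxin (Txn2) with its reductase Txnrd2, and the mitochondrial glutaredoxin Glrx2. They were read by the 15 non-control probes that carry 1 of these gene names, out of 39429 non-control probes on the array, and all 10 genes were found. Hippocampal RNA of each mouse was hybridised to its own one-colour Agilent array, for 3 IF1-KO, 3 control (CRL) and 3 IF1-TG male C57BL/6J mice aged 9 months. In IF1-KO mice exon 3 of Atpif1 (also named Atp5if1), which encodes the ATP synthase inhibitor IF1, was floxed and deleted by a Cre recombinase under the Camk2a promoter, whose activity is mainly that of excitatory neurons in the forebrain. IF1-TG mice carried human IF1 under a tetracycline-regulated element, switched on by a transactivator under the same promoter. Hippocampal cells without Cre kept their Atpif1 gene in IF1-KO mice, and in IF1-TG mice human IF1 was added to the mouse gene. For neuronal cultures of the study, control embryos of the knockout line were Atpif1+/+ with Cre, and those of the transgenic line were wild type or carried the transactivator alone, but which of these the CRL mice on the arrays were is not given in the sources used here. The comparison asks whether transcripts of antioxidant enzymes differed when the IF1 dose in neurons was removed or raised.

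Superoxide leaks from the respiratory chain, and IF1, by holding back the ATP synthase, is known to raise the membrane potential that favours this leak. Superoxide dismutases turn superoxide into hydrogen peroxide, which catalase, glutathione peroxidases and peroxiredoxins then reduce to water. Peroxiredoxins of the mitochondrion are recharged by thioredoxin and thioredoxin reductase, and neurons are known for low catalase activity beside these systems.

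Signals are given as log2 intensity relative to the 75th percentile within each array, so that a value of 0 marks that percentile and differences between genotypes are log2 ratios. A level compares arrays for 1 probe and says nothing about the abundance of 1 gene against another. A probe was kept when some genotype had it well above background on each of its 3 arrays, which left 13 of the 15 member probes and 27993 of all probes. The 2 probes that were not kept, 1 of Txn2 and 1 of Glrx2, were each well above background on 1 array. Each gene is described by its brightest kept probe, over 21906 gene names, and its further kept probes are given beside it.

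Of 10 enzymes, none changed by 1.5-fold or more at an unadjusted p below 0.05 in any pair of genotypes, the criterion in the methods of the study. Over all genes, that criterion was passed by 4.31% between IF1-TG and CRL, 1.02% between IF1-KO and CRL, and 3.71% between IF1-TG and IF1-KO. Without the fold threshold, Sod1 was higher and Gpx4 lower in IF1-TG than in CRL mice, that is 2 of 10 members against 8.07% of all genes. Leaving out 1 array gave 0 to 2 members. With the array slide, described below, as a fixed block, the differences were 0.36 for Sod1 and -0.09 for Gpx4. Against IF1-KO mice, Gpx4 was the 1 member of 10 with a difference, lower in IF1-TG, compared with 6.91% of all genes, and 0 of 10 differed between IF1-KO and CRL, against 2.57%. After Benjamini-Hochberg adjustment in limma over all kept probes, 0 of 21906 genes passed in any pair (0%), so that the 0 members among them say nothing particular to the members, whose lowest adjusted p was 0.53. The median log2 difference of the members was 0.08 for IF1-TG minus CRL, -0.0045 for IF1-KO minus CRL and 0.06 for IF1-TG minus IF1-KO, beside medians of all genes of -0.00061, -0.014 and 0.012. The first of these member medians turned to -0.0489 with quantile normalization and to -0.0912 with normexp correction and quantile normalization, and the last to -0.0268 and -0.0581. With the mean of a gene's probes in place of the brightest, they were -0.011 and -0.022. Leaving out 1 array moved the first between 0.012 and 0.12 and the last between 0.027 and 0.10.

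**Figure D1:**
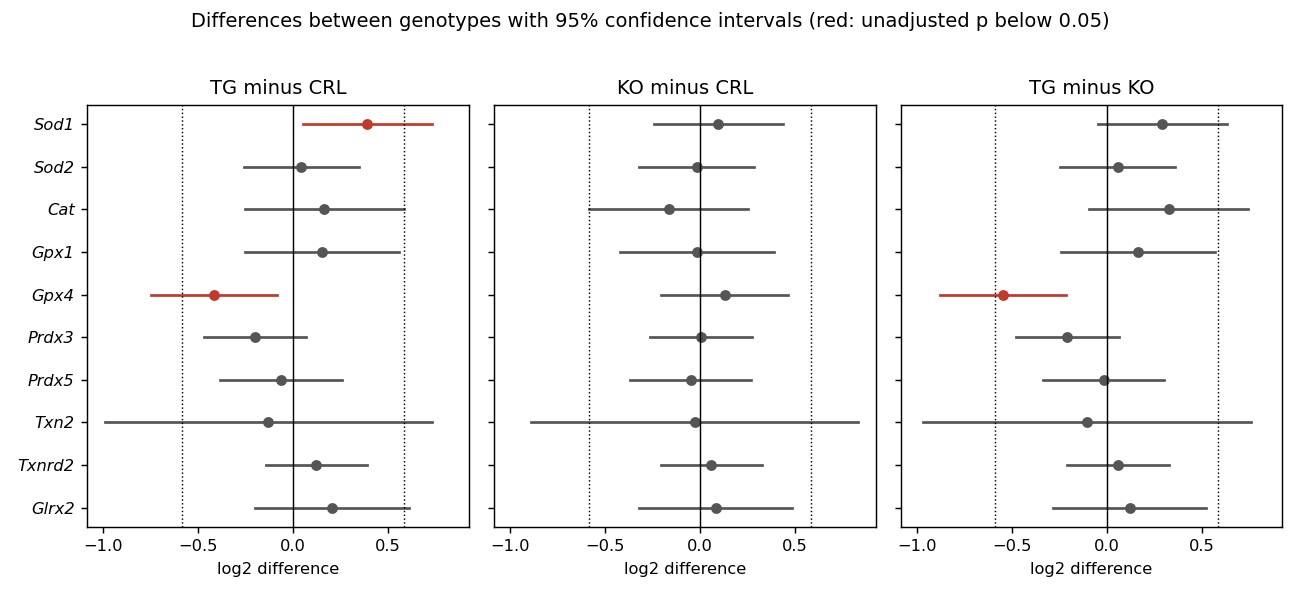
Log2 difference of each of the 10 enzymes for IF1-TG minus CRL, IF1-KO minus CRL and IF1-TG minus IF1-KO (x axis; points, with 95% confidence intervals of the limma fit over 9 arrays as bars), with dotted lines at a 1.5-fold change and red marking an unadjusted p below 0.05. Sod1 at 0.39 and Gpx4 at -0.42 and -0.55 are the red points, and no point reaches a dotted line.

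Sequences of the probes that matter for these results are shown because several values below turn on which probe is read. The deposited annotation places the probes on mm9, and their exon or UTR placement was not analysed here. The probe of Sod1 (chr16:90226509-90226568) and the bright probe of Txn2 (chr15:77745481-77745540) end in a stretch with a polyadenylation signal, set in capitals. AATAAA or ATTAAA, read on the probe strand, stands in 16.7% of all probes. The second set of capitals marks the 16-base CA repeat inside the brighter Cat probe (chr2:103294487-103294546). The whole 60 bases follow for the dimmer Cat probe, which has no position in the annotation, and for Gpx4 (chr10:79518783-79518842). Each of these keeps 1 reading frame without a stop.
Sod1, last 30 bases: ctaccctcaaaccATTAAActgtaatctga
Txn2, bright probe, last 30 bases: aagtcagaccAATAAAaccaggtttgcact
Cat, brighter probe, 30 bases around the repeat: acacatacCACACACACACACACAtgcaat
Cat, dimmer probe: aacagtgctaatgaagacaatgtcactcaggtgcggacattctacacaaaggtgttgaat
Gpx4: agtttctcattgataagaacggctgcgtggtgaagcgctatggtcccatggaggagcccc

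Of facts on the whole series, the share of probes well above background was 66.7% to 69.5% on IF1-TG arrays, 71.0% to 72.9% on IF1-KO arrays and 72.2% to 74.9% on CRL arrays, and no spot was saturated. IF1-TG replicates 1 and 2 shared slide 1, CRL replicates 1 and 2 shared slide 2 with IF1-KO replicate 1 and IF1-TG replicate 3, and IF1-KO replicates 2 and 3 and CRL replicate 3 shared slide 3. Hence slide 1 held a single genotype, and with slide as a fixed block the IF1-TG level comes from IF1-TG replicate 3 alone. The probe of the targeted gene Atpif1 (chr4:132086507-132086566) read 6.44, 5.20 and 5.53 on IF1-KO replicates 1 to 3, 6.32, 6.34 and 6.19 on CRL arrays, and 6.43, 6.39 and 6.51 on IF1-TG arrays. The array labelled IF1-KO replicate 1 stood at the level of the other genotypes, and for the brightest probe of each member the difference between IF1-TG and IF1-KO, and the range of those between IF1-KO and CRL, are also given without it. Whether the probe lies inside the deleted exon, or reads human IF1, was not tested. All 6 neuronal and all 7 hippocampal excitatory neuron markers had a kept probe. The per-array median of the neuronal markers was 4.51 to 4.56 on IF1-KO, 4.46 to 4.84 on CRL and 4.59 to 4.71 on IF1-TG arrays. That of the excitatory neuron markers was 2.37 to 2.81, 2.503 to 2.88 and 2.77 to 3.12, whereas the median of their single differences was -0.30 for IF1-TG minus CRL and 0.06 for IF1-TG minus IF1-KO. The per-array median of 7 oligodendrocyte markers was 2.70 to 2.95 on IF1-KO, 2.79 to 3.34 on CRL and 3.13 to 3.44 on IF1-TG arrays, and that of 7 choroid plexus markers was -2.57 to 0.78, -1.56 to 0.49 and -1.84 to 2.02. That of 6 microglial markers was 0.89 to 1.17 on IF1-KO, below 1.21 to 1.29 on CRL and 1.20 to 1.36 on IF1-TG arrays, and that of 5 striatal markers was -2.56 to -0.69, -1.62 to 0.02 and -2.77 to -1.58. The medians of 7 astrocyte, 5 endothelial and 4 red blood cell markers overlapped between all genotypes, and the red blood cell median ran from -1.17 to 0.28 on IF1-KO, -2.60 to 2.501 on CRL and -1.29 to -0.49 on IF1-TG arrays. Pituitary hormone genes (Gh, Prl, Pomc) had per-array medians between -6.44 and -3.78 on CRL arrays, against -8.05 to -7.19 on IF1-KO and -8.79 to -8.03 on IF1-TG arrays. In both of these, 3 of the 4 listed pituitary genes were not well above background on any array. The part of these markers, and of the smaller share of probes above background on IF1-TG arrays, in the results below was not tested.

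**Figure D2:**
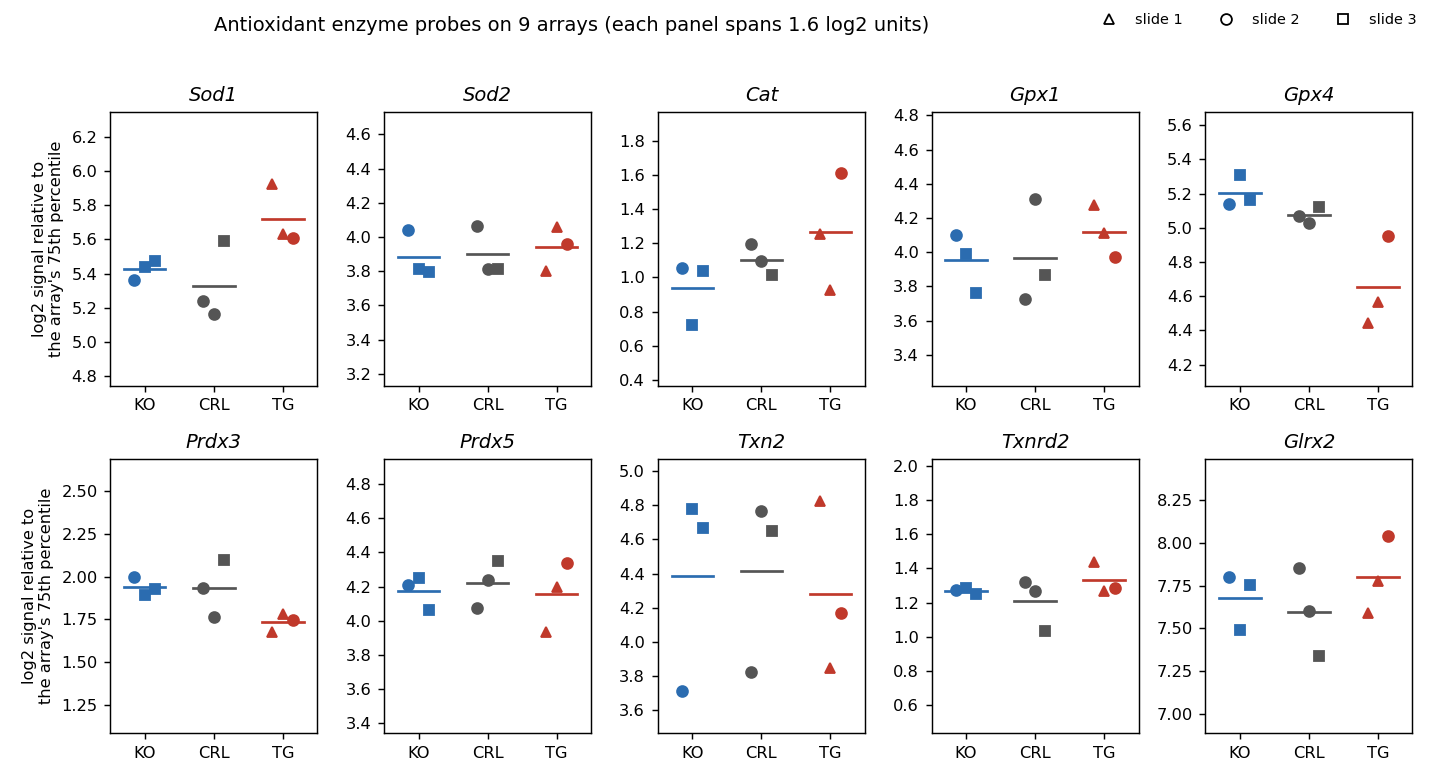
Log2 signal relative to the array-wide 75th percentile (y axis) for the brightest probe of each of the 10 enzymes, 1 point per array, with the mean of each genotype as a line and the slide as the symbol. Each panel spans the same 1.6 log2 units. The 3 IF1-TG points of Sod1 lie above those of both other genotypes, those of Gpx4 lie below, and Txn2 spans 1.11 log2 units over the 9 arrays, with 0.94 within CRL, 1.07 within IF1-KO and 0.98 within IF1-TG.

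Sod1 is the copper-zinc dismutase of the cytosol and intermembrane space. It read 5.24, 5.16 and 5.59 in CRL mice, 5.36, 5.44 and 5.48 in IF1-KO mice and 5.93, 5.63 and 5.61 in IF1-TG mice. The 3 IF1-TG arrays were above all others, although the margin to CRL replicate 3 was narrow. The mean was 5.72 ± 0.18 (SD, n = 3) in IF1-TG against 5.33 ± 0.23 in CRL mice, a log2 difference of 0.39 ± 0.15 (SE) or 1.31-fold (limma, unadjusted p = 0.0287, adjusted p = 0.55). Against IF1-KO mice the difference was 0.29 (95% confidence interval -0.04 to 0.63, limma unadjusted p = 0.0809, adjusted p = 0.71). Without IF1-KO replicate 1 it was 0.26, and without CRL replicate 3, which changes only the shared estimate of spread, it was 0.29 (limma, unadjusted p = 0.0490). In whole tissue, fewer cells of a type and less RNA per cell cannot be told apart. Sod1 was also 1 of 2 members whose IF1-TG and CRL values did not overlap, against 11.8% of all genes. The difference from CRL kept its sign in 19 of 19 alternative fits and passed the p threshold in 12 of them. It was 0.36 with slide as a fixed block (limma, unadjusted p = 0.101) and 0.41 within slide 2. It no longer passed the p threshold under quantile normalization (0.30), under normexp correction with quantile normalization (0.38), in the fit of the 2 genotypes alone (0.39), and without IF1-TG replicate 1 (0.29), CRL replicate 1 (0.35) or CRL replicate 2 (0.31).

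Sod2, the manganese dismutase of the mitochondrial matrix (chr17:13208074-13208133), did not separate the genotypes. It read 4.07, 3.81 and 3.82 in CRL, 4.04, 3.81 and 3.79 in IF1-KO and 3.80, 4.06 and 3.96 in IF1-TG mice. Each genotype held arrays near 3.8 and arrays above 3.9. The IF1-TG minus CRL difference was 0.04 (95% confidence interval -0.26 to 0.35) and that for IF1-KO minus CRL -0.02 (-0.32 to 0.29), so that changes beyond 1.27-fold upward in IF1-TG or 1.22-fold upward in IF1-KO mice lie outside the intervals.

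Catalase degrades hydrogen peroxide, mainly in peroxisomes. Its brighter probe read 1.19, 1.10 and 1.01 in CRL, 1.05, 0.72 and 1.04 in IF1-KO and 1.26, 0.93 and 1.61 in IF1-TG mice. The highest value, on IF1-TG replicate 3, stood apart from the rest, and the genotypes overlapped. The difference was 0.16 (95% confidence interval -0.26 to 0.58) for IF1-TG minus CRL, -0.16 (-0.58 to 0.26) for IF1-KO minus CRL and 0.33 (-0.09 to 0.75) for IF1-TG minus IF1-KO. The first of these was 0.46 with slide as a fixed block. In that fit the IF1-TG level comes from IF1-TG replicate 3 alone, the array that stood apart. The difference for IF1-TG minus IF1-KO was 0.57 in the same blocked fit. It rose to 0.45 with normexp correction and quantile normalization together (limma, unadjusted p = 0.0454) and to 0.50 without IF1-TG replicate 2 (limma, unadjusted p = 0.0197). Without IF1-KO replicate 1 it was 0.38.

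The dimmer Cat probe ordered the genotypes the other way. It read -1.93, -3.45 and -1.88 in CRL, -2.50, -2.16 and -2.07 in IF1-KO and -2.68, -2.74 and -3.07 in IF1-TG mice. All 3 IF1-TG arrays were below all 3 IF1-KO arrays, while CRL replicate 2 was the lowest of the 9. The difference was -0.41 (95% confidence interval -1.29 to 0.47) for IF1-TG minus CRL and -0.58 (-1.47 to 0.30) for IF1-TG minus IF1-KO (limma, unadjusted p = 0.167, adjusted p = 0.74). Both Cat probes were well above background on all 9 arrays, and no direction is therefore given for Cat.

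The glutathione peroxidases differed from each other. Gpx1, the abundant selenoenzyme of cytosol and mitochondria (chr9:108242276-108242335), read 3.72, 4.31 and 3.87 in CRL, 4.10, 3.99 and 3.76 in IF1-KO and 4.27, 4.11 and 3.97 in IF1-TG mice. CRL replicates 1 and 2 were the lowest and the highest of the 9 arrays. The IF1-TG minus CRL difference was 0.15 (95% confidence interval -0.25 to 0.56) and that for IF1-KO minus CRL -0.02 (-0.42 to 0.39).

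Gpx4 reduces lipid peroxides in membranes and is known as the enzyme that holds off ferroptosis. It read 5.07, 5.03 and 5.12 in CRL, 5.14, 5.31 and 5.16 in IF1-KO and 4.45, 4.57 and 4.95 in IF1-TG mice. All 3 IF1-TG arrays were below the 3 CRL arrays. These in turn were below the 3 IF1-KO arrays, by a narrow margin (5.12 on CRL replicate 3, 5.14 on IF1-KO replicate 1). Non-overlap was found for 11.8% of all genes between IF1-TG and CRL, 7.85% between IF1-KO and CRL and 13.3% between IF1-TG and IF1-KO. The share of genes apart in all 3 pairs at once is not given. The mean was 4.66 ± 0.27 (SD, n = 3) in IF1-TG, 5.07 ± 0.05 in CRL and 5.20 ± 0.09 in IF1-KO mice. The log2 signal fell by 0.42 ± 0.15 (SE) from CRL to IF1-TG mice, or 1.34-fold lower (limma, unadjusted p = 0.0197, adjusted p = 0.53). From IF1-KO to IF1-TG mice it fell by 0.55 ± 0.15, or 1.46-fold lower (limma, unadjusted p = 0.00496, adjusted p = 0.66), and without IF1-KO replicate 1 it fell by 0.58. IF1-KO minus CRL was 0.13 (95% confidence interval -0.20 to 0.46).

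The Gpx4 differences moved with the slide. The lowest values, 4.45 and 4.57, came from the 2 IF1-TG arrays of slide 1, which held no other genotype, whereas the IF1-TG array of slide 2 read 4.95 beside 5.14 for IF1-KO and 5.07 and 5.03 for CRL. Within slide 2, IF1-TG minus CRL was -0.10 and IF1-TG minus IF1-KO -0.19, each from a single IF1-TG array. With slide as a fixed block they were -0.09 (limma, unadjusted p = 0.562) and -0.19 (limma, unadjusted p = 0.274). With slide as a random block they were -0.39 (limma, unadjusted p = 0.0266) and -0.52 (limma, unadjusted p = 0.00702). For the 2 arrays of slide 1, slide and genotype cannot be told apart. Without IF1-TG replicate 3, the IF1-TG minus IF1-KO difference was -0.70 and passed 1.5-fold. IF1-TG minus CRL no longer passed the p threshold without IF1-TG replicate 1 (-0.31), IF1-TG replicate 2 (-0.37) or CRL replicate 3 (-0.39).

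Among peroxiredoxins, Prdx3 is the main peroxide-reducing enzyme of the mitochondrial matrix (chr19:60940148-60940207), and its probe was printed in 10 spots, which were averaged. It read 1.94, 1.76 and 2.10 in CRL, 2.00, 1.89 and 1.93 in IF1-KO and 1.67, 1.78 and 1.75 in IF1-TG mice. The IF1-TG arrays were all below the IF1-KO arrays and overlapped CRL replicate 2. The difference was -0.20 for IF1-TG minus CRL (95% confidence interval -0.47 to 0.07, limma unadjusted p = 0.128, adjusted p = 0.68) and -0.21 for IF1-TG minus IF1-KO (-0.48 to 0.06, limma unadjusted p = 0.117, adjusted p = 0.72). Within slide 2 they were -0.11 and -0.26, and without IF1-KO replicate 1 the latter was -0.18. With Sod1 and Gpx4, Prdx3 made up the 3 of 10 members that did not overlap between IF1-TG and IF1-KO mice, against 13.3% of all genes.

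Prdx5, an atypical peroxiredoxin of mitochondria, peroxisomes and cytosol (chr19:6981371-6981430), read 4.08, 4.24 and 4.35 in CRL, 4.21, 4.25 and 4.06 in IF1-KO and 3.94, 4.20 and 4.34 in IF1-TG mice. The 3 genotypes overlapped in part, with IF1-TG replicate 1 the lowest array and CRL replicate 3 the highest. IF1-TG minus CRL was -0.06 (95% confidence interval -0.38 to 0.26) and IF1-KO minus CRL -0.05 (-0.37 to 0.27).

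Txn2 is the mitochondrial thioredoxin that recharges Prdx3, and among the brightest probes of the members its own varied most between arrays. Its bright probe read 3.82, 4.77 and 4.65 in CRL, 3.71, 4.78 and 4.67 in IF1-KO and 4.83, 3.85 and 4.17 in IF1-TG mice. Every genotype held at least 1 array near 3.8 and at least 1 near 4.8. The residual SD of the fit was 0.53, at the 90.7th percentile of all kept probes, and the differences between genotypes had wide intervals (-0.99 to 0.73 for IF1-TG minus CRL). The dimmer Txn2 probe (chr15:77757053-77757112) had genotype means of -2.15 ± 0.38 in CRL, -2.34 ± 0.23 in IF1-KO and -2.33 ± 0.14 in IF1-TG mice (SD, n = 3).

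Set against each other, Txn2 and Sod2 ran in opposite directions from array to array. The 5 arrays with Txn2 between 4.65 and 4.83 had Sod2 between 3.79 and 3.82, and the 3 arrays with Txn2 between 3.71 and 3.85 had Sod2 between 4.04 and 4.07. IF1-TG replicate 3 lay between, at 4.17 for Txn2 and 3.96 for Sod2. Both clusters held all 3 genotypes, and each held arrays of slides 1 and 2. Because the arrays fell into separate clusters of fewer than 6, no correlation is given for this pair and the relation was not tested. At a Pearson r above 0.9 or below -0.9 over 9 arrays, Sod2 had 15 and 48 of 21658 other genes and the bright Txn2 probe had 62 and 16. Over all 10 members these counts ran from 7 to 83 above and from 1 to 48 below, so that close and opposite patterns over so few arrays were found for each member.

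**Figure D3:**
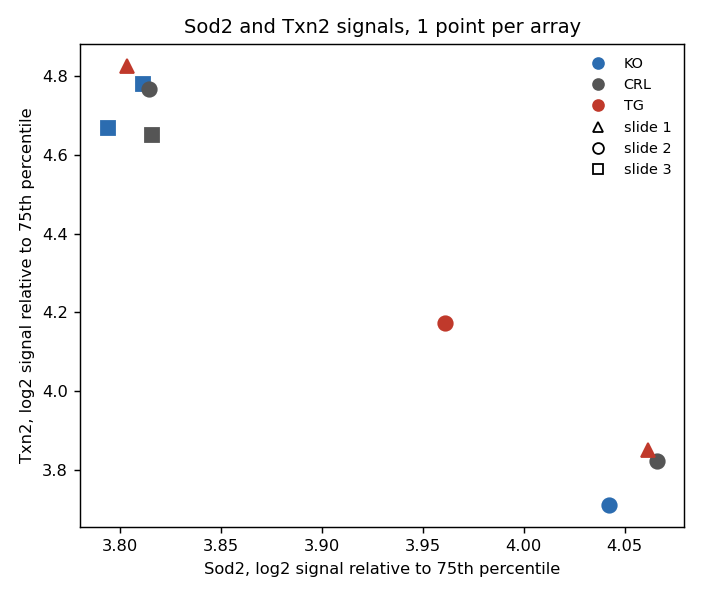
Txn2 (y axis) against Sod2 (x axis), both as log2 signal relative to the 75th percentile, 1 point per array, with colour for genotype and symbol for slide. The 5 arrays at upper left and the 3 at lower right each include IF1-KO, CRL and IF1-TG mice, and IF1-TG replicate 3 lies between them.

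Txnrd2, the mitochondrial reductase that returns electrons from NADPH to Txn2 (chr16:18479106-18479165), was among the least variable members, with a residual SD of 0.10 against a median of 0.24 for all kept probes. It read 1.32, 1.27 and 1.04 in CRL, 1.27, 1.29 and 1.25 in IF1-KO and 1.44, 1.27 and 1.29 in IF1-TG mice. CRL replicate 3 was the lowest array and IF1-TG replicate 1 the highest. IF1-TG minus CRL was 0.12 (95% confidence interval -0.14 to 0.39) and IF1-KO minus CRL 0.06 (-0.21 to 0.33).

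For Glrx2, which adds and removes glutathione on mitochondrial proteins, the 3 probes did not share a locus. The brightest was placed by the annotation on chr12:44858646-44858705, whereas RefSeq has Glrx2 on chromosome 1. A 20-base stretch of this probe stood, on either strand, in 13 probes of 13 other gene names, among them Elk1, Med16 and Timmdc1. It was on the same strand in 10 and on the opposite strand in 3. No stretch of that length was shared for 13 of the other 14 member probes, and for Sod1 it was shared with 1 other probe. The most shared 20 bases of the bright Glrx2 probe are in capitals, and the polyadenylation signal in the last 30 bases of the kept chromosome 1 probe (chr1:145593845-145593904) is in capitals below it.
Glrx2, brightest probe, bases 24 to 53: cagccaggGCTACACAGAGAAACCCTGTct
Glrx2, chromosome 1 probe, last 30 bases: ataatgaacAATAAAttgccctggaccctt

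The bright Glrx2 probe read 7.85, 7.60 and 7.34 in CRL, 7.80, 7.49 and 7.75 in IF1-KO and 7.59, 7.78 and 8.04 in IF1-TG mice. The chromosome 1 probe read 1.33, 0.19 and 1.30 in CRL, 1.03, 1.42 and 1.41 in IF1-KO and 1.03, 0.90 and 1.41 in IF1-TG mice. On the latter probe CRL replicate 2 stood far below the other 8 arrays. IF1-TG minus CRL was 0.20 (95% confidence interval -0.20 to 0.61) on the bright probe and 0.17 (-0.53 to 0.87) on the chromosome 1 probe. IF1-TG minus IF1-KO was 0.12 and -0.18, or 0.18 and -0.31 without IF1-KO replicate 1, so the probes differed in sign and neither passed.

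Ordered by IF1 dose, the means rose from IF1-KO over CRL to IF1-TG mice for Sod2, Gpx1 and the brighter probe of Cat, and ran the other way for Gpx4 and Prdx3. The dimmer Cat probe ran the same way as Gpx4 and Prdx3, with means of -2.25 in IF1-KO, -2.42 in CRL and -2.83 in IF1-TG mice. The other 5 followed neither order. With slide as a fixed block the order held for the brighter Cat probe and Gpx4, turned round for Gpx1 (0.0466 for IF1-KO and -0.0608 for IF1-TG, each minus CRL), and did not hold for Sod2 (0.0444 and 0.0015) or Prdx3 (-0.0190 and -0.16). Among neighbouring means in these 5 orders, only those of Gpx4 in CRL and IF1-TG mice differed at the unadjusted threshold in limma. Without IF1-KO replicate 1, differences between IF1-KO and CRL mice ranged from -0.22 for Cat to 0.31 for Txn2, and 0 members passed the unadjusted p threshold. Prdx3 (IF1-KO minus CRL -0.02) then left the order of Gpx4, and Txn2 joined it. IF1-TG minus IF1-KO was then 0.14 for Sod2, 0.24 for Gpx1, 0.00087 for Prdx5, -0.44 for Txn2 and 0.06 for Txnrd2.

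By Pearson r over the 9 arrays, the 3 genes of 21658 with the pattern most like Sod1 were Usp31 (0.962), Cln8 (0.946) and Ube2k (0.945). For Sod2, whose arrays fell into the clusters above, they were Chchd1, Snx1 and Fam212a, and no r is given. For Cat, by its brighter probe, they were Gm5433 (0.986), Card6 (0.984) and Slc8a3 (0.980). These values describe 9 arrays that share slides and scaling.

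A list of 68 genes, called further antioxidant genes here, was counted in the same fit. It also includes enzymes that produce reactive oxygen species (5 with a kept probe) and upstream regulators (4 with a kept probe). Of the list, 64 had a kept probe (Gpx5, Gpx6, Cybb and Nox4 did not). None of the 64 passed both the fold and p thresholds in any pair of genotypes. With slide as a fixed block, 4 of them did so for IF1-TG minus CRL, namely Sesn2 (0.63), Sesn3 (0.62), Gstk1 (-0.67) and Slc7a11 (-0.86), and 1 for IF1-TG minus IF1-KO, Sesn3 (0.69). In that fit 7.25% and 4.79% of all genes did so. These were named after their values were seen, and without the block the differences from CRL were 0.31, 0.31, -0.16 and -0.49 in the same order. In the blocked fit, here and below, the IF1-TG level comes from IF1-TG replicate 3 alone. Without the block, at unadjusted p below 0.05 alone, 2 of the 64 were higher in IF1-TG than CRL mice. In that fit 0 differed between IF1-KO and CRL, and 4 were higher in IF1-TG than IF1-KO mice. None was lower, and none of these 6 differences passed the p threshold with slide as a fixed block. In the blocked fit other genes passed it, mostly downwards, with 2 higher and 5 lower for IF1-TG minus CRL and 1 higher and 3 lower for IF1-TG minus IF1-KO, against 5.55% higher and 4.81% lower, and 3.09% and 3.22%, of all genes. Without the block, 4.2% of all genes were higher and 3.87% lower at this p in IF1-TG against CRL, and 3.72% and 3.19% against IF1-KO. The median difference of the 64 was 0.07 for IF1-TG minus CRL, -0.01 for IF1-KO minus CRL and 0.08 for IF1-TG minus IF1-KO.

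Prdx6, the peroxiredoxin that uses glutathione, read 4.31, 4.34 and 4.51 in IF1-KO, 4.67, 4.63 and 4.49 in CRL and 4.77, 4.88 and 4.73 in IF1-TG mice on its brightest probe. The IF1-TG arrays were above all others, by 0.40 ± 0.11 (SE) over IF1-KO (limma, unadjusted p = 0.00686, adjusted p = 0.66) and by 0.19 over CRL (limma, unadjusted p = 0.124, adjusted p = 0.68). Its 3 other kept probes gave -0.02, 0.13 and 0.56 for IF1-TG minus IF1-KO and, in the same order, -0.12, -0.06 and 0.65 for IF1-TG minus CRL, and none passed the p threshold. Without IF1-KO replicate 1, the brightest probe was 0.36 above IF1-KO, and with slide as a fixed block it was 0.32 above.

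Gsta4, a glutathione transferase that clears the lipid peroxidation product 4-hydroxynonenal, read -0.63, -0.73 and -0.75 in CRL, -0.62, -0.69 and -0.63 in IF1-KO and -0.23, -0.41 and -0.44 in IF1-TG mice. The IF1-TG arrays did not overlap either group. The difference was 0.34 ± 0.11 (SE) from CRL (limma, unadjusted p = 0.0117, adjusted p = 0.50) and 0.29 from IF1-KO mice (limma, unadjusted p = 0.0262, adjusted p = 0.68), or 0.30 without IF1-KO replicate 1. Sesn1, a stress-induced sestrin, was 0.40 higher in IF1-TG than CRL mice (limma, unadjusted p = 0.0262, adjusted p = 0.55), with values of 2.37, 2.36 and 2.08 against 1.66, 1.83 and 2.11, which overlapped. IF1-TG minus CRL was 0.24 for Gsta4 and 0.30 for Sesn1 with slide as a fixed block, and IF1-TG minus IF1-KO was 0.17 for Gsta4.

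Glrx5, a mitochondrial glutaredoxin of iron-sulfur cluster assembly, was 0.32 higher in IF1-TG than IF1-KO mice (limma, unadjusted p = 0.0297, adjusted p = 0.68), or 0.42 without IF1-KO replicate 1. Keap1, the adaptor that keeps the transcription factor NRF2 low, was 0.47 higher (limma, unadjusted p = 0.0418, adjusted p = 0.70), with IF1-KO replicate 2 at 1.98 below the other IF1-KO values of 2.72 and 2.62. Without IF1-KO replicate 1, the Keap1 difference was 0.61 and passed both thresholds (limma, unadjusted p = 0.0185, adjusted p = 0.65). The difference was 0.16 for Glrx5 and 0.32 for Keap1 with slide as a fixed block. Nfe2l2, which encodes NRF2, did not pass in any pair. Its difference was 0.12 for IF1-TG minus CRL, turning to -0.31 with slide as a fixed block. For IF1-KO minus CRL it was 0.14, turning to -0.03 without IF1-KO replicate 1. Gclc, the catalytic subunit that makes the glutathione precursor, gave -0.00032 for IF1-TG minus CRL and -0.21 for IF1-KO minus CRL. With the block these were 0.03 and -0.07, and without IF1-KO replicate 1 the latter was -0.42. The glutathione reductase Gsr gave 0.08 and -0.02 for the same pairs, which turned to -0.03 and 0.0096 with the block.

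**Figure D4:**
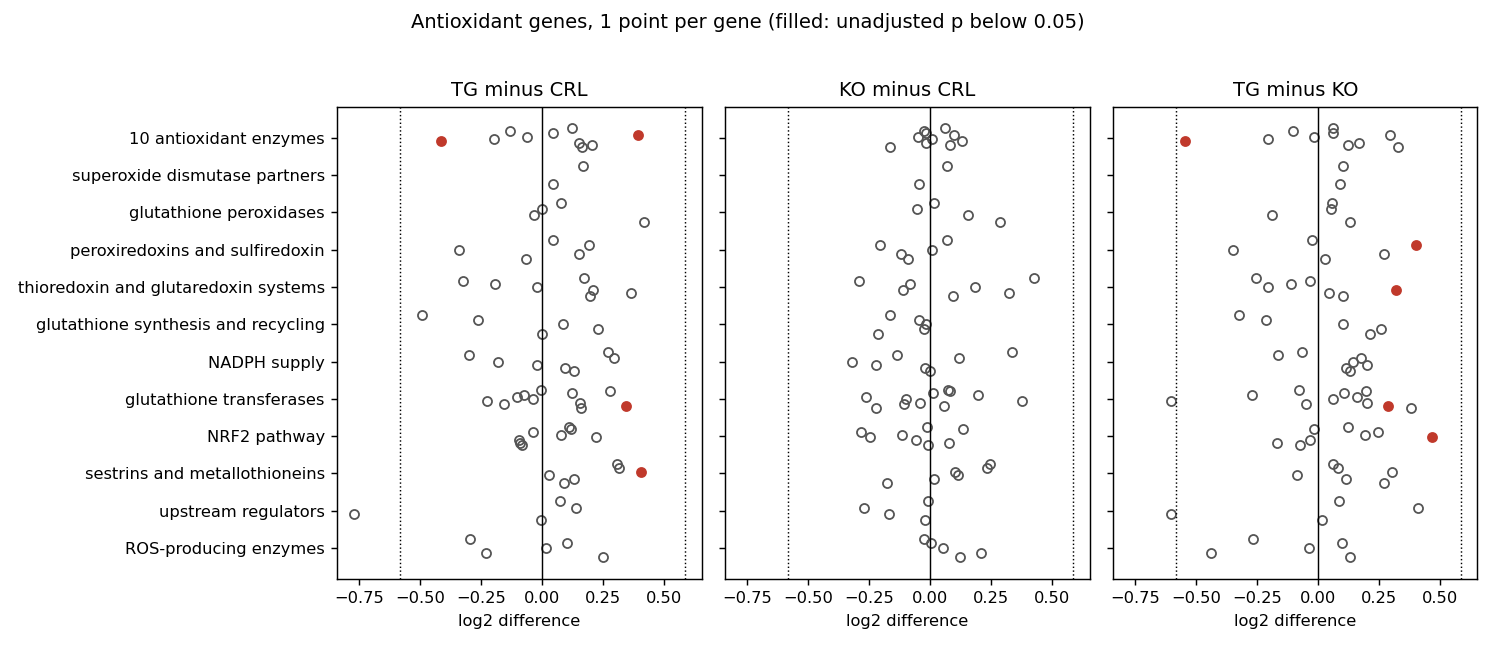
Log2 difference (x axis) of the 10 enzymes and of 64 further genes of the antioxidant list by group (y axis), 1 point per gene, for the 3 pairs of genotypes. The list includes enzymes that produce reactive oxygen species (ROS) and upstream regulators. Dotted lines mark a 1.5-fold change and filled points an unadjusted p below 0.05. In this fit without slide, filled points among the 64 further genes are all above 0, with 2 for IF1-TG minus CRL and 4 for IF1-TG minus IF1-KO, and no gene between IF1-KO and CRL is filled.

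The antioxidant response element, to which NRF2 binds, was searched for in RefSeq promoters (GRCm38.p6, 250 bases before to 50 after each start) by its core TGACNNNGC on both strands. The core stood in 12.4% of 32851 promoters and in 1 of the 16 promoters of the 10 members. By gene, 14.0% of 27025 had it, and 1 of the 10 members. This was the Sod1 promoter, with the match, shown in capitals, on the opposite strand from 56 bases before the start site. A match to these letters is a description of the sequence, and a link to the Sod1 values was not tested.
Sod1, chr16:90220696-90220725 (GRCm38.p6, plus strand): gccaaggtggGCGTGGTCAgactcaggcct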

How the data were processed

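The authors deposited spot intensities from Agilent Feature Extraction 10.7.3.1, background-subtracted within each array and not normalized between arrays. Genotype, replicate and age came from the labels. The slide was read from the barcode in the name under which each array was deposited. Intensities were taken to log2, the 75th percentile of each array was subtracted, outlier and control spots were dropped, and the spots of each probe averaged. All 9 arrays entered a limma 3.58.1 fit of genotype with eBayes (R 4.3.3), adjusted by Benjamini-Hochberg over 27993 kept probes. The fit was tested on simulated data. A call was a fold of 1.5 and an unadjusted p below 0.05. The number of arrays limits the precision.

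Named genes were the members, genes of the antioxidant list past the p threshold, Prdx6, Nfe2l2, Gclc, Gsr and Atpif1, and the 3 genes most like Sod1, Sod2 and Cat. The members and lists were chosen with earlier results of these data known. Other background corrections, normalizations, filters, blocks, probes and left-out arrays were tried. The alternative background correction used normexp with an offset of 50 on deposited mean intensities.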

Additional observations from a re-analysis of the deposited data

How the results depend on the processing

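Of 616 recomputed member differences, 71 changed sign, and none of these had passed the unadjusted p threshold in the analysis reported. The differences of Sod1 (IF1-TG minus CRL) and Gpx4 (IF1-TG minus CRL and minus IF1-KO) kept their signs in each of 19 fits and within slide 2. The counts and values below are log2 differences of the brightest probe unless another is named, and the cause of each change was not tested. Apart from the fixed block, no share of all genes is given for these fits, so their counts cannot be set against it.

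With normexp correction and quantile normalization together, IF1-TG minus CRL gave 1 member past the p threshold, a member median of -0.0912, -0.21 for Sod2 and -0.12 for Glrx2. IF1-KO minus CRL gave 0.11 for Gpx1 and 0.0602 for Txn2. IF1-TG minus IF1-KO gave 1 member past both thresholds (Gpx4), 2 past the p threshold, a median of -0.0581, 1 further antioxidant gene, -0.11 for Sod2, -0.0084 for Gpx1, 0.11 for Prdx5 and -0.29 for Glrx2. With quantile normalization alone, IF1-TG minus CRL gave 1 member past the p threshold, a median of -0.0489 and -0.12 for Glrx2, and IF1-TG minus IF1-KO gave 1 member past both thresholds (Gpx4), 1 further gene and -0.17 for Glrx2.

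With slide as a fixed block, IF1-TG minus CRL gave 0 members past the p threshold, 4 further genes, -0.0608 for Gpx1 and 0.14 for Prdx5. IF1-KO minus CRL gave 0.0444 for Sod2, 0.0466 for Gpx1 and -0.0190 for Prdx3. IF1-TG minus IF1-KO gave 1 further gene, -0.0429 for Sod2, -0.11 for Gpx1, 0.21 for Prdx5, 0.24 for Txn2 and -0.0724 for Txnrd2. With slide as a random block, Prdx5 gave 0.00038 for IF1-TG minus IF1-KO.

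The fit to only the genotypes compared gave 1 member past the p threshold between IF1-TG and CRL. Without a filter on dim probes, 1 further gene passed against each of CRL and IF1-KO in IF1-TG mice. Between IF1-TG and IF1-KO, 1 further gene passed with probes well above background on all 9 arrays, with the trend and robust options, with the mean of the probes of a gene, and with the replicate block. Same-numbered arrays deviated together with r between -0.17 and 0.12, so the numbers were not taken as pairs, and the replicate block changed no member count. With the mean of probes, Cat gave -0.12, 0.0053 and -0.13 for IF1-TG minus CRL, IF1-KO minus CRL and IF1-TG minus IF1-KO, and Glrx2 gave -0.0277 for the last. By probes chosen after seeing the data, the dimmer Cat probe gave -0.41, 0.17 and -0.58, and the chromosome 1 probe of Glrx2 gave -0.18 for IF1-TG minus IF1-KO.

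Leaving out 1 array in turn, IF1-TG minus CRL gave 0 to 2 members past the p threshold and 0 to 1 further gene past both thresholds, and ranged from -0.0167 to 0.13 for Sod2, -0.0100 to 0.33 for Cat, -0.15 to 0.0469 for Prdx5 and -0.43 to 0.0853 for Txn2. IF1-KO minus CRL gave 0 to 1 further gene, and ranged from -0.0962 to 0.0674 for Sod2, -0.14 to 0.16 for Gpx1, -0.0774 to 0.0896 for Prdx3, -0.12 to 0.0164 for Prdx5, -0.32 to 0.31 for Txn2, -0.0251 to 0.12 for Txnrd2 and -0.0469 to 0.21 for Glrx2. IF1-TG minus IF1-KO gave 0 to 1 member past both thresholds (Gpx4, without IF1-TG replicate 3), 1 to 2 past the p threshold and 0 to 2 further genes, and ranged from -0.00045 to 0.14 for Sod2, -0.11 to 0.0953 for Prdx5 and -0.44 to 0.11 for Txn2.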
